A study of Drosophila melanogaster with 7 samples.

Results

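The cytosolic ribosomal protein genes are the genes whose symbol in the deposited gene table starts with RpL (large subunit) or RpS (small subunit). Mitochondrial ribosomal proteins, whose symbols start with mRpL or mRpS, were not included. The rule took 92 of 15551 fly genes, and all 92 had a value in all 6 libraries. By symbol, 50 of these were counted with the large subunit, 4 with the P proteins of its stalk and 38 with the small subunit. The symbol alone decided this, so RpLP0-like, RpL7-like and RpL24-like are counted beside their relatives. Expression is given as FPKM, the number of sequenced fragments scaled by transcript length and by the reads mapped in the library, so that levels of genes of different length can be set side by side.

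A ribosome holds a single copy of nearly every ribosomal protein, and the genes encoding them are among the most strongly expressed in any growing cell. Their mRNAs are short, stable and cytoplasmic, and the proteins return to the nucleolus to be assembled with ribosomal RNA. In flies many of these genes are Minute loci, where losing a single gene copy slows growth and shortens the bristles. Several have a second copy elsewhere in the genome, and in Drosophila a number of those copies are used mainly in the germ line.

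Nuclear RNA was sequenced from heads of adult flies in which a GAL4 line drove unc84-GFP, a nuclear membrane tag by which nuclei were captured on antibody-coated beads. The GAL4 line was R57C10, which labels mature neurons generally, OK107, which labels mainly the Kenyon cells that make up the mushroom body, or Tdc2, which labels octopaminergic neurons. A further sample of whole dissected adult brain was not described as tagged nuclei, and its RNA carries the same molecule label, nuclear RNA, as the others. The labels list 7 samples, with 2 of R57C10. The columns used hold 6 libraries, 1 of R57C10, 2 each of OK107 and Tdc2 (a and b below) and 1 of whole brain. Which R57C10 sample its column holds is not shown, and the other was not analysed here. All tagged groups shared the unc84-GFP transgene, each is defined by where its GAL4 line is active, and each preparation pooled many frozen heads. The spread of R57C10 and of whole brain, with 1 library each, was taken to equal that of the OK107 and Tdc2 pairs. The labels do not say whether the paired libraries came from separate flies, so p-values measure only the spread between these libraries.

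The genes that define the groups matched their labels. Tdc2, the tyrosine decarboxylase of octopamine synthesis, reached 110 and 90.3 FPKM in its own nuclei and did not exceed 3.01 FPKM elsewhere. The Kenyon cell transcription factor gene ey lay at 248 and 259 FPKM in OK107 and between 10.2 and 35.9 elsewhere. Column names carried date-like tags, an earlier one for the OK107 pair and for Tdc2 a, a later one for the remaining libraries, so that OK107 and R57C10 shared no tag. Depth is not given. The steps between low FPKM values imply, as a weak estimate, about 22300000 reads in the shallowest library (Tdc2 a) and 56400000 in the deepest (whole brain).

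Ribosomal protein genes took 1.92% of all fly FPKM in R57C10, 2.21% and 2.39% in the OK107 libraries, 4.87% and 5.23% in the Tdc2 libraries and 4.01% in whole brain. R57C10 and OK107 nuclei were therefore low, and Tdc2 nuclei and whole brain were high. Of the 92 genes, 85 passed the filter of at least 1 FPKM in at least 2 libraries. Their median level was 44.3 FPKM in R57C10, 60.7 and 74.0 in OK107, 130 and 139 in Tdc2 and 120 in whole brain. The median of all tested genes in the same libraries lay between 7.01 and 10.2 FPKM, and the median ribosomal protein gene stood between percentiles 85.2 and 96.5 of them. In 79 of the 85 genes both Tdc2 libraries and whole brain lay above R57C10 and both OK107 libraries, against 13.4% of all genes tested. The lowest library was R57C10 for 75 of the 85. R57C10 also had the lowest median of all tested genes, 7.01 FPKM. The share of all genes lowest in R57C10 was not counted. The median gene spanned a 3.31-fold range from its lowest to its highest library. Since these are bulk preparations, more cells of a type and more RNA per cell cannot be told apart.

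**Figure D1:**
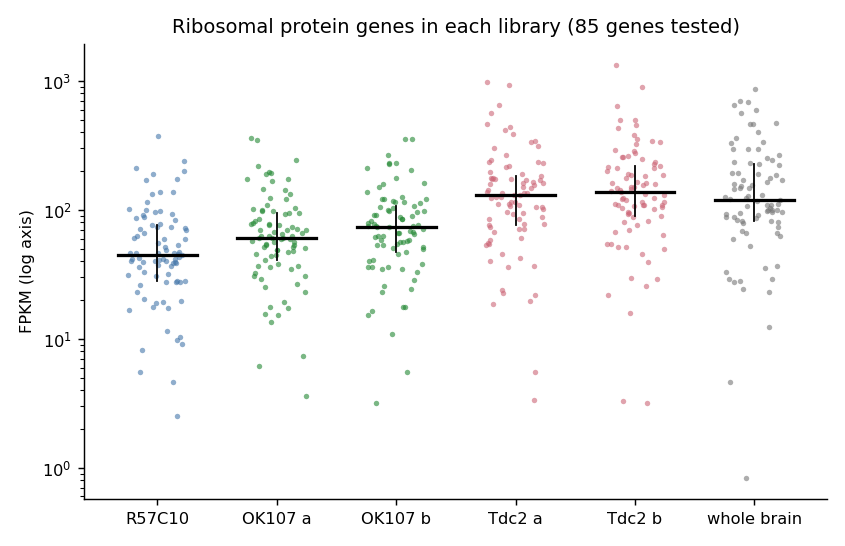
FPKM (log axis) of the 85 tested ribosomal protein genes in each of the 6 libraries; each point is 1 gene, the wide line is the median and the thin line spans the quartiles. Medians run from 44.3 in R57C10 through 60.7 and 74.0 in OK107 to 130 and 139 in Tdc2, with whole brain at 120.

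The order of the genes by level was much the same in every library. Spearman's rho over the 85 genes lay between 0.864 (whole brain and Tdc2 a) and 0.982 (the OK107 pair), as a description across genes that share their libraries. The 4 genes with the highest mean were RpS3, RpS7, RpS3A and RpL5. RpS3, a small-subunit protein beside the mRNA entry channel, lay at 371 FPKM in R57C10, 358 and 352 in OK107, 927 and 1338 in Tdc2 and 862 in whole brain. RpS7 lay at 239, then 243 and 267, then 978 and 894, and 701 FPKM in the same order of libraries. RpL5, which carries 5S ribosomal RNA into the large subunit, had 199 FPKM in R57C10, 198 and 231 in OK107, 655 and 494 in Tdc2 and 595 in whole brain. For these 3 genes OK107 nuclei lay close to R57C10, while Tdc2 nuclei and whole brain stood apart above both. RpS3A differed from them, with 210 FPKM in R57C10 and 350 and 355 in OK107, below 565 and 635 in Tdc2 and 682 in whole brain.

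At the other end, 7 genes did not pass the filter and none exceeded 0.576 FPKM in any library. They were RpS5b, RpS19b, RpS28a, RpS28-like, RpL10Aa, RpL22-like and RpL37b, each the minor copy of a pair or trio of genes. The 4 lowest means belonged to RpL10Aa, RpL22-like, RpS28a and RpL37b. RpL37b was listed at 0 in 5 libraries and at 0.124 FPKM in Tdc2 a, and RpS28a was listed at 0 in 5 libraries and at 0.226 FPKM in OK107 a. RpS5b, the copy used mainly in the female germ line, was the highest of the 7, between 0.164 FPKM in whole brain and 0.576 in OK107 b. No fold is given for these 7 genes.

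Tdc2 nuclei were set against R57C10 nuclei to ask how octopaminergic neurons differ from neurons in general. Ribosomal protein genes were higher in Tdc2 almost throughout: 78 of 85 were called higher by limma (adjusted p under 0.05, adjustment over all 9585 genes), 1 was called lower and 6 were not called. Over all genes tested, 20.6% were called higher and 15.2% lower. The median gene was 2.81-fold higher by FPKM (log2 difference 1.46), and the median of all genes differed by 0.03. RpLP0, the base of the ribosomal stalk, showed the largest difference, with 20.3 FPKM in R57C10 and 112 and 109 in Tdc2 (log2 difference 2.39, SE 0.12, adjusted p = 0.00136 by limma). RpLP2, a tip protein of the stalk, followed at 27.8 FPKM against 127 and 139 (2.21, SE 0.17, adjusted p = 0.00212 by limma). RpL4, which lines the peptide exit tunnel, had 41.2 FPKM in R57C10 against 198 and 185 in Tdc2 (2.19, SE 0.13). RpS2 had 97.9 against 462 and 430 FPKM (2.18, SE 0.12), and RpL13A had 40.1 against 161 and 163 FPKM (1.99, SE 0.14). For all 5 genes, picked for their large differences here, both Tdc2 libraries stood far above R57C10 and close to each other. After each library was centred on its median, 78 genes were again called higher, where all genes split into 18.6% higher and 23.7% lower.

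The 6 genes not called were RpL29, RpL36, RpL36A, RpL38, RpS28b and RpLP0-like, whose log2 differences ran from 0.58 to 1.00. RpL36A had 60.7 and 109 FPKM in the Tdc2 pair against 40.1 in R57C10. RpL38 had 36.1 and 52.1 against 28.3 FPKM (log2 difference 0.60, SE 0.24). For both genes each Tdc2 library lay above R57C10, with a wide gap within the pair. Within the later date tag the median gene was 1.54 higher (log2) in Tdc2 b than in R57C10, and 84 of the 85 were higher. Tdc2 a against R57C10 gave 1.36.

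Summed markers of fat body, photoreceptors, glia and muscle were also higher in both Tdc2 libraries than in R57C10. The 5 fat body markers summed to 358 FPKM in R57C10, 43.7 and 45.8 in OK107, 6045 and 5324 in Tdc2 and 3889 in whole brain, nearly all from the yolk protein genes Yp1, Yp2 and Yp3. Fbp1 stayed under 1 FPKM in every library, and Lsp2 lay at 1.57 and 5.03 FPKM in Tdc2 against 40.8 in whole brain. The 8 photoreceptor markers summed to 702 FPKM in R57C10, 1224 and 1213 in OK107, 5530 and 4773 in Tdc2 and 439 in whole brain, led by the opsin gene ninaE. The 6 glial markers in the table, 1 of them without a value in OK107 a, summed to 149 FPKM in R57C10, 184 and 218 in OK107, 437 and 519 in Tdc2 and 3585 in whole brain, and repo, which defines glia, lay at 1.57, then 3.55 and 3.38, then 11.7 and 11.0, and 21.3 FPKM. The 8 muscle markers summed to 78.5, then 143 and 150, then 208 and 589, and 102 FPKM in the same order, with Tm2 missing from whole brain. These lists were high in 1 or both of the groups in which ribosomal protein genes were high, but not in the same proportion. The 4 hemocyte markers summed to 65.2 FPKM in R57C10, 9.54 and 8.76 in OK107, 55.2 and 76.5 in Tdc2 and 164 in whole brain. Pxn had no value in OK107 and made up 58.0 FPKM of the R57C10 sum, so the OK107 sums cannot be set beside the others. It lay at 26.7 and 31.9 FPKM in Tdc2 and 21.9 in whole brain. Hml, vkg and Cg25C were each higher in both Tdc2 libraries than in R57C10, and highest in whole brain. Of the 5 ovary markers all stayed under 1 FPKM in every library, as did 4 of the 5 testis markers. The 5 neuronal markers summed to between 2112 and 3110 FPKM, with 1 value missing in R57C10 and in OK107 b. The part of these cell types in the ribosomal protein difference was not tested.

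OK107 against Tdc2 sets Kenyon cells beside octopaminergic neurons and is the comparison with 2 libraries on each side. Here 71 of 85 genes were lower in OK107, 1 was higher and 13 were not called, where 14.0% of all genes were called lower and 34.3% higher. The median gene was 2.02-fold lower by FPKM, which on the log2 scale is -1.29 from the median of all genes, itself 0.28 higher in OK107. Median centring moved all genes to 14.2% higher and 21.6% lower and ribosomal protein genes to 82 lower. Both Tdc2 libraries lay above both OK107 libraries in 81 of the 85 genes, against 22.4% of all genes tested. RpS7 differed most, 243 and 267 FPKM in OK107 against 978 and 894 in Tdc2 (log2 difference -1.87, SE 0.11, adjusted p = 9.1e-04 by limma). Next came RpLP0 with 30.9 and 28.7 against 112 and 109 FPKM (-1.86), RpLP2 with 32.5 and 40.3 against 127 and 139 (-1.84), RpL4 with 59.8 and 53.6 against 198 and 185 (-1.74) and RpS3 (-1.65). The groups did not overlap for any of these 5 genes, which were picked for their large differences here. Without OK107 a the number called lower was 41, against 6.01% of all genes, and the median difference was -0.88. Within the earlier date tag the median gene was higher in Tdc2 a than in OK107 a by 0.99 and than in OK107 b by 0.74 (log2).

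The 13 genes not called between OK107 and Tdc2 included RpS19a, RpS30, RpS21 and RpL21. RpS30, which is made as a fusion to a ubiquitin-like protein, lay at 79.7 and 98.8 FPKM in OK107 and at 96.7 and 89.3 in Tdc2, so that the groups overlapped (log2 difference -0.07, SE 0.14). RpS21 had 17.5 and 24.3 FPKM in OK107 and 23.8 and 29.0 in Tdc2, again with overlap. This comparison shares its Tdc2 libraries with the preceding one.

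**Figure D2:**
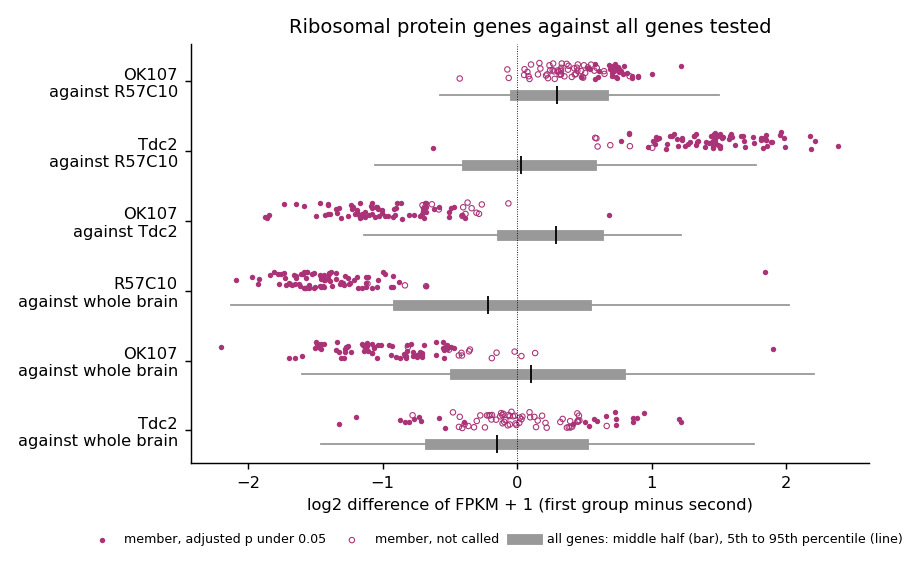
Log2 difference of FPKM + 1, first group minus second, for the 85 tested ribosomal protein genes (points, filled where limma's adjusted p was under 0.05) and for all genes tested (bar for the quartiles, line from the 5th to the 95th percentile, tick for the median) in 6 comparisons. The points lie to the right of all genes in Tdc2 against R57C10 (median 1.46 against 0.03), to the left in the next 3 comparisons, and on both sides of 0 in Tdc2 against whole brain. RpS10a is the point far from the others in Tdc2 against R57C10 (-0.63), OK107 against Tdc2 (0.68) and R57C10 and OK107 against whole brain (1.85 and 1.90).

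OK107 against R57C10 showed a small difference whose calls depend on scaling. As deposited, 31 of 85 genes were higher in OK107, none lower and 54 not called. Among all genes 21.4% were called higher and 3.56% lower, and the median of all genes was itself 0.30 higher in OK107. The median ribosomal protein gene was 1.40-fold higher by FPKM (log2 difference 0.48), which is 0.18 above the median of all genes. After median centring, which moved the median of all genes to -0.15, limma called 0 ribosomal protein genes higher and 1, RpL31, lower, against 8.26% and 16.3% of all genes. The median ribosomal protein gene then lay at 0.03, still 0.18 above all genes. Quantile normalization left 13 higher, against 7.92% of all genes. Without OK107 a the count of higher genes was 1 (RpS19a), against 5.07% of all genes, and without OK107 b it was 0, against 4.39%. Without Tdc2 a or Tdc2 b it was 60, against 48.6% and 48.7%, so the counts moved together with those of all genes.

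RpS19a, a small-subunit protein whose human counterpart is mutated in Diamond-Blackfan anaemia, had the largest difference in this comparison. It lay at 31.9 FPKM in R57C10, 62.9 and 90.7 in OK107, 130 and 107 in Tdc2 and 73.9 in whole brain (OK107 against R57C10: log2 difference 1.22, SE 0.25, adjusted p = 0.0289 by limma, 0.0704 after centring). RpS21 lay at 9.79 FPKM in R57C10 and 17.5 and 24.3 in OK107 (1.00), RpL18 at 19.1 against 36.9 and 36.1 (0.90), RpL22 at 9.09 against 19.3 and 16.4 (0.90) and RpL35A at 19.6 against 36.1 and 36.3 (0.86). R57C10 was the lowest library for each of these genes, which were picked for their large differences here. RpL31, at the mouth of the exit tunnel, went the other way with 139 FPKM in R57C10 and 102 and 103 in OK107 (log2 difference -0.43, SE 0.21, adjusted p = 0.187 by limma).

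The comparisons with whole brain share the single whole brain library. Against it, R57C10 had 81 of 85 genes lower, 1 higher and 3 not called, where 32.8% of all genes were called lower and 22.3% higher (21.5% and 32.0% after median centring, with 79 ribosomal protein genes lower). The median gene was 2.77-fold lower by FPKM in R57C10 (log2 difference -1.44, against -0.22 for all genes). OK107 had 72 lower, 1 higher and 12 not called, where 22.0% of all genes were lower and 31.5% higher, and the median gene was 1.92-fold lower (-0.93, against 0.10 for all genes). Without OK107 a, 44 genes were called lower in OK107, against 11.6% of all genes. Tdc2 against whole brain was mixed: 15 genes higher, 11 lower and 59 not called, where 21.2% of all genes were called higher and 29.1% lower (28.5% and 20.2% after median centring, with 25 and 7 ribosomal protein genes). Its median difference was -0.01, against -0.15 for all genes, and the share of ribosomal protein genes called was smaller than that of all genes in both directions. Leaving out OK107 a or OK107 b gave 9 higher and 7 lower, where 15.7% and 18.6% of all genes were called. Leaving out Tdc2 a gave 30 and 17 (all genes 30.9% and 40.7%), and leaving out Tdc2 b gave 23 and 20 (all genes 25.1% and 39.4%).

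In R57C10 the largest differences from whole brain were those of RpS20 (36.2 against 157 FPKM, log2 difference -2.09, SE 0.21), RpL23A (83.3 against 329, -1.97), RpS18 (170 against 650, -1.93), RpL38 (28.3 against 110, -1.92) and RpL32 (40.5 against 147, -1.84). RpL32 is the rp49 gene often used as a reference in fly expression assays. In OK107 RpL31 led with 102 and 103 against 475 FPKM (-2.20, SE 0.21). RpL38, RpS18, RpL29 and RpS24 followed at -1.69, -1.65, -1.60 and -1.50. These 5 were picked for their large differences here, so that both OK107 libraries lay below whole brain for them adds no support.

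Tdc2 nuclei split the genes. RpL4 lay at 198 and 185 FPKM against 82.5 in whole brain (log2 difference 1.20, SE 0.13, adjusted p = 0.00294 by limma), RpLP1 at 58.7 and 54.6 against 29.0 (0.94), RpL18 at 71.4 and 67.5 against 37.0 (0.89) and RpS2 at 462 and 430 against 244 (0.86). In the other direction RpL38 had 36.1 and 52.1 against 110 FPKM (-1.32, SE 0.24, adjusted p = 0.0103 by limma), RpL29 had 124 and 111 against 269 (-1.20), RpS30 had 96.7 and 89.3 against 171 (-0.87), RpL21 had 130 and 133 against 236 (-0.84) and RpS20 had 84.3 and 95.2 against 157 (-0.80). Whole brain lay outside the Tdc2 pair for every gene in this paragraph, each picked for its large difference here.

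After the values were seen, further transcripts were looked up beside these differences. The mitochondrially encoded mt:ATPase6 lay at 0.141 FPKM in R57C10, 0.197 and 0.241 in OK107, 0.862 and 1.40 in Tdc2 and 3.71 in whole brain. The nuclear noncoding RNA roX1, which is made in males, lay at 6.27, then 6.53 and 7.15, then 3.53 and 3.54, and 0.0123 FPKM. mt:ATPase6 was lowest and roX1 highest in R57C10 and OK107, with Tdc2 between them and whole brain. A further noncoding RNA, Hsromega, did not follow this order. It lay at 11.4 FPKM in R57C10, 6.7 and 5.7 in OK107, 5.7 and 14.7 in Tdc2 and 1.96 in whole brain. The part of these transcripts, and of the sex of the flies, in the ribosomal protein levels was not tested.

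In Tdc2 the difference tended to be larger for genes with longer coding sequences. Over the 85 genes, coding length (from the BDGP6 annotation, which matched all 92 genes by name) and the log2 difference of Tdc2 from R57C10 had a Spearman's rho of 0.455, and of Tdc2 from whole brain 0.393, as descriptions across genes that share the libraries. For OK107 against R57C10 rho was 0.194, and for OK107 against whole brain 0.256. As examples, RpL3, RpL4, RpLP0, RpS2 and RpS3A have the coding lengths 1248, 1203, 951, 801 and 804 bases, while RpL38, RpL29, RpL36 and RpS28b have 210, 228, 345 and 195. RpLP0-like did not follow this, with 768 bases and a log2 difference of 0.59 in Tdc2 against R57C10. The subunits moved together. In Tdc2 against R57C10, 43 of 47 large-subunit genes were higher (median 1.47) and 32 of 34 small-subunit genes (median 1.43). Of the 4 genes counted as P proteins 3 were higher, and RpLP0-like was not called. OK107 against Tdc2 gave 40 of 47 and 28 of 34 lower, with medians of -0.92 and -1.01. The same annotation places 74 snoRNA genes, which guide modification of ribosomal RNA, inside 28 of the genes, with 14 in RpS5a and 7 in RpS7. Tdc2 against R57C10 called 27 of the 28 hosts and 51 of the other 57 tested genes higher, with medians of 1.52 and 1.40.

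The stalk, formed by RpLP0, RpLP1 and RpLP2, recruits the elongation factors to the ribosome. All 3 genes were higher in Tdc2 than in R57C10, OK107 and whole brain. RpLP1 lay at 17.7 FPKM in R57C10, 29.0 and 35.1 in OK107, 58.7 and 54.6 in Tdc2 and 29.0 in whole brain, and OK107 against whole brain was not called (log2 difference 0.13, SE 0.16). RpLP0 and RpLP2 were both lower in OK107 than in whole brain (log2 differences -1.12 and -1.25). RpLP0-like, whose yeast counterpart Mrt4 is an assembly factor, lay between 2.52 and 5.53 FPKM and was called in no comparison. Its Tdc2 libraries, 5.53 and 3.29 FPKM, differed more from each other than those of any tested ribosomal protein gene apart from RpL36A.

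The genes that encode a ribosomal protein fused to ubiquitin or a relative of it were RpS27A, RpL40 and RpS30. RpS27A lay at 115 FPKM in R57C10, 143 and 152 in OK107, 233 and 327 in Tdc2 and 362 in whole brain. RpL40 lay at 90.9, then 103 and 126, then 174 and 201, and 252 FPKM. All 3 genes were higher in Tdc2 than in R57C10 (log2 differences 1.25, 1.03 and 0.77) and lower in R57C10 and OK107 than in whole brain.

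Most families with more than 1 gene were dominated by a single copy. RpS5a lay at 37.7 FPKM in R57C10, 54.2 and 56.5 in OK107, 135 and 150 in Tdc2 and 99.7 in whole brain, with RpS5b at most 0.576 FPKM. RpL10Ab, RpL22, RpL37a, RpS19a and RpS28b likewise stood alone, at 33.2, 9.09, 39.2, 31.9 and 47.3 FPKM in R57C10. The RpS14, RpS15A and RpL34 families kept both copies. RpS14a and RpS14b lay at 39.5 and 28.1 FPKM in R57C10 and at 111 and 86.2 in whole brain, and both were called in every comparison apart from Tdc2 against whole brain, with log2 differences of 1.40 and 1.46 in Tdc2 against R57C10. RpS15Aa and RpS15Ab lay at 70.1 and 16.8 FPKM in R57C10 and 187 and 52.3 in whole brain, and RpL34a and RpL34b at 8.13 and 4.60 and at 27.9 and 12.3. Nearly identical copies can share reads, so the split within these families is uncertain.

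RpL7-like and RpL24-like, relatives of the yeast assembly factors Rlp7 and Rlp24, lay at 11.6 and 10.4 FPKM in R57C10, 15.3 to 17.7 in OK107, 21.9 to 25.5 in Tdc2 and 24.2 and 28.9 in whole brain. Both were higher in Tdc2 than in R57C10 (log2 differences 0.97 and 1.02), beside 1.59 for RpL7 and 1.18 for RpL24. Whether these differ was not tested.

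RpS10a was the only ribosomal protein gene called lower in Tdc2 than in R57C10, and the only one called higher in R57C10 and in OK107 than in whole brain. It lay at 5.58 FPKM in R57C10, 6.19 and 5.50 in OK107, 3.37 and 3.16 in Tdc2 and 0.831 in whole brain. Its log2 difference from whole brain was 1.85 in R57C10 (SE 0.19, adjusted p = 0.00186 by limma), 1.90 in OK107 and 1.22 in Tdc2. The difference between Tdc2 and R57C10, -0.63 (SE 0.16, adjusted p = 0.0352 by limma), was not called without OK107 a (adjusted p = 0.136) or without OK107 b (adjusted p = 0.135). RpS10b, the main copy, followed the other genes with 63.2 FPKM in R57C10, 73.7 and 92.1 in OK107, 189 and 151 in Tdc2 and 176 in whole brain. In the BDGP6 annotation RpS10a overlaps tau, a neuronal microtubule protein gene, and the library kit is not stated to mark strand, so their reads may not be told apart. tau lay at 80.1 FPKM in R57C10, 99.8 and 101 in OK107, 101 and 69.6 in Tdc2 and 141 in whole brain. The part of tau reads in the RpS10a values was not tested. In all, 25 of the 92 genes overlap another protein-coding gene in that annotation, among them RpL12 and RpL39, which overlap each other.

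**Figure D3:**
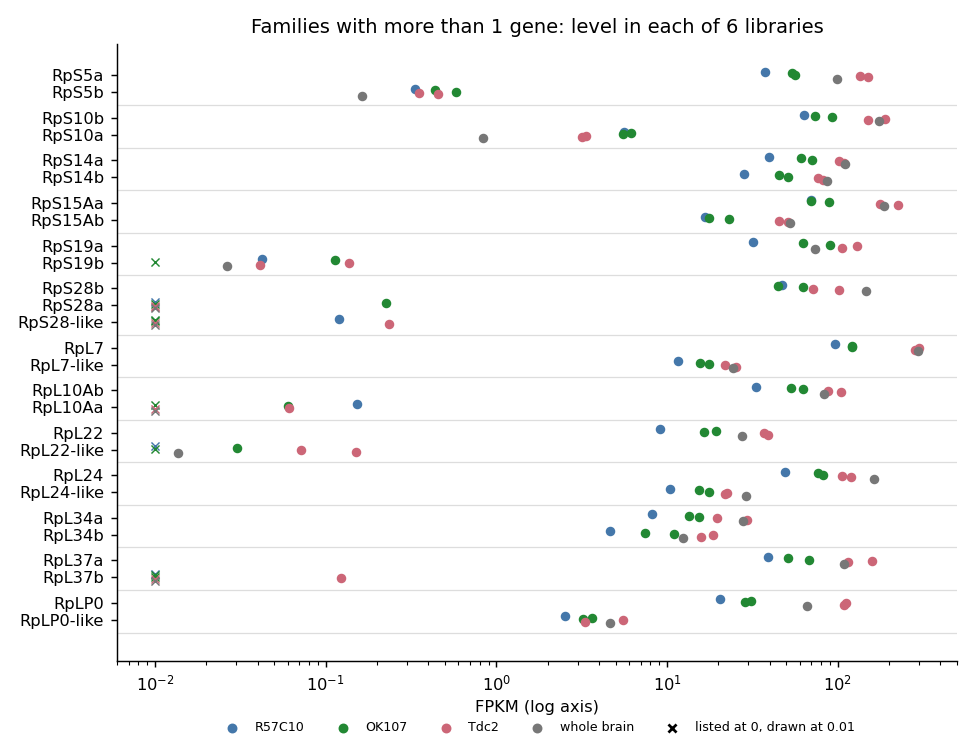
FPKM (log axis) in each of 6 libraries for the 13 families with more than 1 gene, points coloured by group and crosses (drawn at 0.01) for values listed at 0. In 6 families at least 1 copy lies below 1 FPKM in every library. RpS10a (0.831 in whole brain, 3.16 to 6.19 in nuclei) and RpS5b, which stays under 1 FPKM, have whole brain below all nuclei libraries.

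Paired libraries lay close together, though not evenly so. OK107 b was above OK107 a in 72 of the 85 genes, against 58.2% of all genes tested, and Tdc2 b was above Tdc2 a in 59, against 58.3%. The largest gaps in the OK107 pair were those of RpS29 (75.8 and 115 FPKM), RpL34b (7.38 and 10.9), RpL27A (50.9 and 74.0) and RpS19a (62.9 and 90.7). In the Tdc2 pair they were those of RpL36A (60.7 and 109 FPKM), RpLP0-like (5.53 and 3.29), RpL34a (19.7 and 29.5) and RpL38 (36.1 and 52.1). Over the 85 genes the median log2 difference within each pair was 0.17 (b minus a), beside 1.46 for Tdc2 against R57C10.

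The authors' deposited table of q-values under 0.05, each from a pair of single libraries, held fewer genes. It lists 49 of 92 ribosomal protein genes as higher in Tdc2 b than in R57C10, where 9.01% of all genes with values are so listed. The authors' deposited table lists 20 as higher in Tdc2 a than in OK107 a (3.33% of all genes), 7 as higher in whole brain than in R57C10 (4.80%) and 2, RpS19a and RpL10Ab, as higher in OK107 b than in R57C10 (6.97%). Between the 2 OK107 libraries the authors' deposited table lists 4, RpS10b, RpS19a, RpL13 and RpS29, as higher in b, where 0.0933% of all genes are listed.

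A pair of ribosomal proteins go by other symbols. Rack1, a scaffold on the small subunit, lay at 27.1 FPKM in R57C10, 40.5 and 39.1 in OK107, 104 and 97.8 in Tdc2 and 63.9 in whole brain. sta, the fly RpSA, lay at 12.9, then 17.2 and 20.1, then 74.7 and 53.5, and 30.7 FPKM. Both were higher in Tdc2 than in R57C10 (log2 differences 1.86 and 2.20) and than in whole brain (0.65 and 1.02).

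Mitochondrial ribosomal protein genes did not show the Tdc2 difference. All 71 were tested, and 3 were higher and 1 lower in Tdc2 than in R57C10, with a median 0.17 above that of all genes, beside 78 and 1 of 85 with 1.43 for the cytosolic genes. Against whole brain, 58 of the 71 were lower in R57C10, 36 in OK107 and 53 in Tdc2, against 32.8%, 22.0% and 29.1% of all genes, and 11 of 85 cytosolic genes were lower in Tdc2. The difference between the 2 families was described by these counts and not tested.

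Translation factors showed the Tdc2 difference in part. Of 7 tested elongation factor genes, 4 were higher in Tdc2 than in R57C10 and none lower, beside 20.6% and 15.2% of all genes. Ef1alpha48D, the main elongation factor that delivers aminoacyl-tRNA, lay at 229 FPKM in R57C10, 289 and 278 in OK107, 2160 and 2218 in Tdc2 and 892 in whole brain, above every ribosomal protein gene in Tdc2 (log2 difference from R57C10 3.25, SE 0.11, adjusted p = 9.9e-04 by limma). Its relative Ef1alpha100E lay at 312, then 384 and 357, then 446 and 402, and 709 FPKM, and was not called between Tdc2 and R57C10 (log2 difference 0.44, SE 0.13). Ef1beta had 25.4 FPKM in R57C10 against 178 and 121 in Tdc2 (2.49), and eEF1delta 7.46 against 13.5 and 12.0 (0.70). Among 25 initiation factor genes 10 were higher in Tdc2 and 1 lower, with a median 0.51 above that of all genes. eIF-4a, the RNA helicase of cap-dependent initiation, lay at 223 FPKM in R57C10, 220 and 217 in OK107, 533 and 518 in Tdc2 and 602 in whole brain. eIF3-S9 had 51.1, then 57.1 and 56.8, then 128 and 127, and 146 FPKM. eIF-4a and eIF3-S9 were both higher in Tdc2 than in R57C10 (log2 difference 1.23 for eIF-4a). eIF-1A and eIF5 were not called between Tdc2 and R57C10, with log2 differences of 0.54 and 0.24.

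Of 18 ribosome assembly genes 4 were higher in Tdc2 than in R57C10 and none lower, a share near the 20.6% of all genes called higher, with a median 0.38 above that of all genes. The nucleostemin-family GTPase gene ns2 lay at 8.38 FPKM in R57C10, 13.4 and 12.7 in OK107, 11.8 and 11.2 in Tdc2 and 23.3 in whole brain, and ns1, Nnp-1 and CG4038 were likewise highest in whole brain, at 6.16, 22.3 and 3.29 FPKM. CG4038 was also higher in Tdc2 than in R57C10 (log2 difference 0.70), and ns2, Nnp-1 and ns1 were not called there. Of 4 RNA polymerase I genes limma called 0 between Tdc2 and R57C10, with adjusted p-values no lower than 0.119. Tif-IA, an initiation factor of RNA polymerase I, lay at 28.6 FPKM in R57C10, 38.4 and 36.5 in OK107, 23.7 and 23.2 in Tdc2 and 50.6 in whole brain. RpI1, RpI12 and RpI135, its subunit genes, lay between 1.48 and 3.82 FPKM and were called in no comparison.

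Among 19 regulators of growth and of ribosomal protein genes, 3 were higher and 3 lower in Tdc2 than in R57C10, near the 20.6% and 15.2% of all genes, with a median 0.21 below that of all genes. Xrp1 is a transcription factor that responds to ribosomal protein loss in Minute flies. It lay at 242 FPKM in R57C10, 271 and 276 in OK107, 121 and 123 in Tdc2 and 92.1 in whole brain. Xrp1 was lower in Tdc2 than in R57C10 (log2 difference -0.98, SE 0.11, adjusted p = 0.00395 by limma). It was not called between OK107 and R57C10 (log2 difference 0.17). A link between Xrp1 and the ribosomal protein levels was not tested. dm, the fly Myc gene, lay at 94.8, then 95.3 and 100.0, then 68.5 and 73.9, and 35.1 FPKM, also lower in Tdc2 (-0.41, SE 0.12, adjusted p = 0.0492 by limma). Thor, the 4E-BP repressor of cap-dependent translation, lay at 9.91 FPKM in R57C10 and 10.8 in whole brain but at 59.5 and 66.3 in OK107 and 56.3 and 58.9 in Tdc2. The insulin receptor gene InR lay at 29.2, then 43.5 and 41.5, then 31.4 and 36.1, and 16.9 FPKM.

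**Figure D4:**
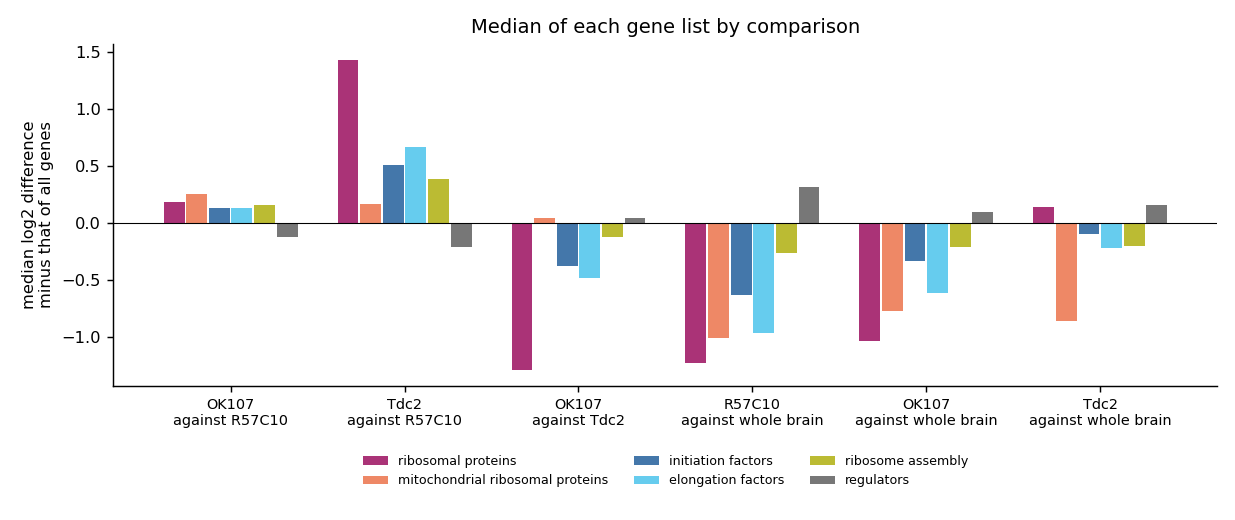
Median log2 difference of each gene list minus the median of all genes tested, in 6 comparisons (bars, 85 ribosomal protein, 71 mitochondrial ribosomal protein, 25 initiation, 7 elongation, 18 assembly and 19 regulator genes). Ribosomal protein genes stand at 1.43 in Tdc2 against R57C10, where the mitochondrial list stands at 0.17, and at 0.14 in Tdc2 against whole brain, where the mitochondrial list stands at -0.86.

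The deposited table of isoforms shows how the FPKM of a gene divides among its transcripts. The following isoforms were chosen after the values were seen and are described without a test. In 30 of the tested genes it gives values for at least 2 isoforms that together hold at least 80% of the gene's FPKM. Of these, 18 isoforms of 12 genes reached 5 FPKM in a library and keep at least 20 bases that the gene's highest isoform splices out. The share of the gene's FPKM was higher in both OK107 libraries than in both Tdc2 libraries for 11 of the 18, and higher in R57C10 than in both Tdc2 libraries for 12. Over the 1723 isoforms of all tested genes that meet the same limits, these shares were 36.3% and 44.6%. In 6 of the 18 all nuclei libraries exceeded whole brain, against 44.2% of the 1723.

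RpL3-RG keeps 307 bases spliced out of RpL3-RA in the BDGP6 annotation. It made up 22.3% of RpL3 in R57C10, 28.6% and 27.5% in OK107, 4.70% and 5.39% in Tdc2 and 5.36% in whole brain. In FPKM RpL3-RG lay at 9.90 in R57C10, 18.7 and 18.7 in OK107, 8.10 and 10.0 in Tdc2 and 5.26 in whole brain. RpL3-RA lay at 34.4, then 46.3 and 49.3, then 164 and 175, and 92.8 FPKM. RpL3-RG was thus highest in OK107 and RpL3-RA in Tdc2. RpS19a-RC, with 305 such bases, made up 14.4% in R57C10, 8.65% and 9.61% in OK107, 4.03% and 2.19% in Tdc2 and 1.63% in whole brain. Other isoforms did not follow this order: RpL35-RA lay between 34.9% and 47.2% in all libraries, and RpL7A-RD was listed at 0 in OK107 a and at 40.5% in OK107 b.

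**Figure D5:**
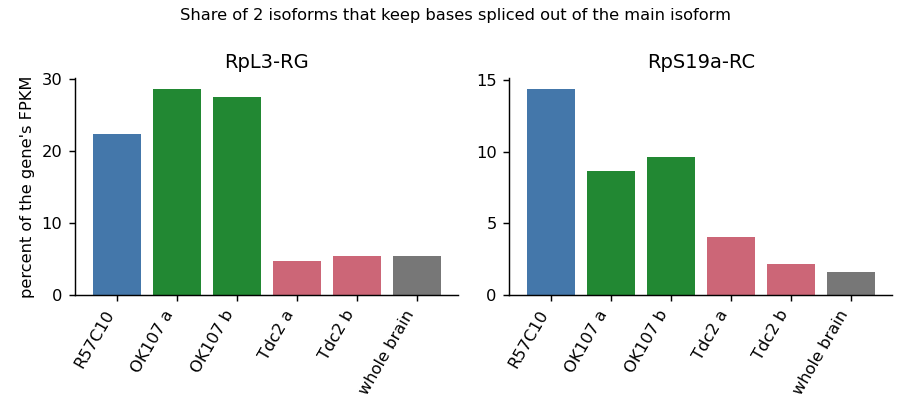
Share of the gene's FPKM (percent, axis from 0) held by RpL3-RG and RpS19a-RC in each of the 6 libraries; 1 bar per library, so there is no error bar. R57C10 and OK107 stand above Tdc2 and whole brain for both isoforms, from 22.3% to 28.6% against 4.70% to 5.39% for RpL3-RG.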

How the data were processed

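Nuclear RNA libraries were made with an amplifying kit and read as short Illumina reads, per the labels. The submitters' processing notes name CASAVA 1.8, TopHat 1.4.0, Cuffdiff 1.3.0, bedtools 2.15 and build dm3. The deposited values are FPKM from Cuffdiff, per the file headers, given for genes and for isoforms, and are not counts. Deposited q-values are listed only where under 0.05. A further 4 FPKM columns repeat these libraries within other comparisons and were not used.

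Differences were tested with limma 3.58.1 (R 4.3.3, trend and robust) on log2(FPKM + 1), which understates differences of low genes, keeping a gene where 2 or more libraries reached 1 FPKM, with Benjamini-Hochberg adjustment over all of them. R57C10, OK107 and Tdc2 were fitted together on 5 libraries and comparisons with whole brain on 6, each with 2 residual degrees of freedom; the code was tested on simulated data. The design allowed for counts or FPKM, and FPKM was found. The implied depth was read from low values of single-isoform genes no shorter than 600 bases; only 55.9% to 60.2% of them lay within 0.2 of a whole read, so reads were not recovered and no counting interval is given. Alternatives were median centring, quantile normalization, no filter and 5 FPKM, pseudocounts of 0.1 and 5, limma without trend and robust, date tag or spike-in status as a term, and leaving out each paired library. Spike-in species were detected in every library except OK107 a and Tdc2 a, so in both pairs only library b held them. Only the Tdc2 pair holds both date tags, so the date term rests on that pair.

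Genes are named by rule: the 4 highest and lowest members, up to 5 called each way per comparison with the largest difference from all genes, families with several copies, the stalk and ubiquitin fusions, the largest gaps within pairs (4 each), and up to 4 genes per pathway list with the smallest p. Members and lists were chosen with earlier results of these data known. Annotation (BDGP6) is of another build and was used for names, lengths and overlaps only. Sequences were not analysed here, and the single values of 1 ribosomal protein gene are not reported here.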

Additional observations from a re-analysis of the deposited data

How the results depend on the processing

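No paired analysis was possible because the library columns carry no replicate numbers of the labels. The median log2 difference, whose spread between paired libraries was 0.148 (SD), kept its sign under every alternative in 5 comparisons; in Tdc2 against whole brain it lay on either side of 0. Relative to the median of all genes it was 0.18 in OK107 against R57C10, -1.29 in OK107 against Tdc2, -1.22 in R57C10 against whole brain and 0.14 in Tdc2 against whole brain. After median centring it was 0.0297 in OK107 against R57C10, 1.31 in Tdc2 against R57C10, -1.30 in OK107 against Tdc2, -1.11 in R57C10 against whole brain and 0.18 in Tdc2 against whole brain. With quantile normalization it was -1.09 in R57C10, -0.73 in OK107 and 0.38 in Tdc2 against whole brain. Fitting the date tag gave 0.62 in OK107 against R57C10.

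The number of genes higher in OK107 than in R57C10 was 0 after median centring (1 lower), 13 with quantile normalization, 19 without a filter and 48 once the date tag was fitted, where 8.26%, 7.92%, 11.1% and 31.9% of all genes were called higher. In OK107 against Tdc2 the 1 higher gene, RpS10a, was not called with median centring or quantile normalization (0). The 1 gene lower in Tdc2 than in R57C10, also RpS10a, was not called with spike-in status as a term (0). Tdc2 against whole brain gave 25 higher and 7 lower after median centring (28.5% and 20.2% of all genes), 29 and 2 with quantile normalization (20.4% and 20.6%), 28 higher with the date tag (31.4%) and 7 lower without a filter (18.4%). The causes were not tested.

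Leaving out each paired library leaves 1 library in that group, so the numbers of ribosomal protein genes called are given only as ranges over these fits. OK107 against R57C10 had 0 to 60 higher and 0 to 1 lower, OK107 against Tdc2 0 to 1 higher and 41 to 77 lower, and Tdc2 against R57C10 0 to 1 lower. OK107 against whole brain had 44 to 78 lower, and Tdc2 against whole brain 9 to 30 higher and 7 to 20 lower. Of 507 results for single named genes under an alternative, 476 kept their call and direction, 31 kept the direction only and none reversed.

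Limits are the 2 residual degrees of freedom, lone libraries of R57C10 and whole brain, an unknown depth, and values that are relative to each library's own reads.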
